A study of Mus musculus with 6 samples.

Results

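The genes described here are those of the AMP-activated protein kinase (AMPK) and of proteins that act directly on it or with it, measured in the left ventricle of obese mice. They are the catalytic subunits Prkaa1 and Prkaa2, the scaffold subunits Prkab1 and Prkab2, the nucleotide-sensing subunits Prkag1 and Prkag2, the kinases Stk11 and Camkk2, the deacetylase Sirt1 and the Rab GTPase-activating protein Tbc1d1. They were chosen by gene symbol in the annotation of the array, which gave 10 genes with 26 probe sets, out of 18193 named genes and 45101 probe sets. Sirt1 is a deacetylase and Tbc1d1 a substrate of AMPK, so only Stk11 and Camkk2 are upstream kinases. The remaining nucleotide-sensing subunit gene, Prkag3, was not among the chosen genes and was read with the regulators.

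Total RNA came from 6 male C57BL/6 mice, 6 months old, kept for 16 weeks on a high fat diet. The placebo group held 3 mice and the Lira group 3 mice, with 1 array per mouse. Both groups received the high fat diet, and no lean group was analysed here, so every difference is one within obesity. The labels name the agent only as Lira and give no dose or duration, and the design text speaks of 10 mice.

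AMPK is a complex of a catalytic, a scaffold and a nucleotide-sensing subunit that switches cells from energy use to energy production when AMP and ADP accumulate. It is active only after phosphorylation of its catalytic subunit, by LKB1, the product of Stk11, or by the calcium-dependent kinase encoded by Camkk2. In heart muscle it is known for promoting glucose uptake and fatty acid oxidation, and its activity is set largely by phosphorylation and nucleotide binding. An array measures transcript abundance and shows neither. In whole ventricle, fewer cells of a type and less RNA per cell cannot be told apart.

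The values are signals in linear units, scaled so that the 2% trimmed mean was 150 on each array. The median signal of an array over all its probe sets lay between 28.6 and 39.6. A probe set is called dim here where its signal lay, on most arrays, below the array's median over the probe sets with 1 gene. That median is a different one from the median over all probe sets. A dim signal cannot be told from background. Signals of different probe sets depend on their probes, so no gene's level is set against another's. The markers of cardiomyocytes were bright, with a summed signal of 222392 to 234218 with placebo and 219296 to 274369 with Lira for 9 of 9 markers. The extraction text speaks of blood, and the 3 measured erythroid markers summed to 44 to 111 with placebo and 32 to 55 with Lira. Of 5 atrial markers, the sum was 2787 to 3218 with placebo and 1618 to 2268 with Lira, most of it Nppa. Myl4, an atrial light chain, read 108, 77.1 and 93.9 with placebo and 115, 120 and 109 with Lira, higher on all Lira arrays and thus opposite in direction to Nppa. Myl7, a further atrial light chain, did not exceed 17.3 on any array. Leukocyte markers summed to 2467 to 3155 with placebo and 3028 to 3605 with Lira for 8 of 9 markers, with overlapping ranges. Smooth muscle markers summed to 1872 to 2082 with placebo and 2191 to 4163 with Lira for 5 of 5 markers, with Acta2 at 3377 on Lira replicate 1. The sums of the other marker lists, for fibroblasts, endothelium, fat cells and skeletal muscle, overlapped between the groups. The fibroblast sum held markers that moved in opposite directions with groups apart. Dcn read 6676, 6828 and 6867 with placebo and 8706, 7303 and 7918 with Lira. Col3a1 read 1707, 1513 and 1571 with placebo and 1424, 944 and 1036 with Lira. The part of atrial, leukocyte, smooth muscle or fibroblast markers in any value below was not tested.

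None of the 10 genes passed an adjusted p of 0.05 in limma with Benjamini-Hochberg adjustment over all 12735 genes tested, where 0.0550% of genes did. All 10 genes passed the filter on low values. At an unadjusted p under 0.05 there was 1 of the 10, Stk11, against 6.02% of all genes tested. It was higher with Lira, as were 2.91% of all genes at that threshold, and 0 of the 10 were lower at it, against 3.12%. Stk11 was also the only one of the 10 whose placebo and Lira arrays did not overlap, against 11.4% of all genes tested. The median log2 difference, Lira minus placebo, was 0.02 over the 10 genes and 0.01 over all genes tested, and the median size of the difference was 0.11 and 0.13. With counts this small, the share of called genes lies near that of the array as a whole.

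**Figure D1:**
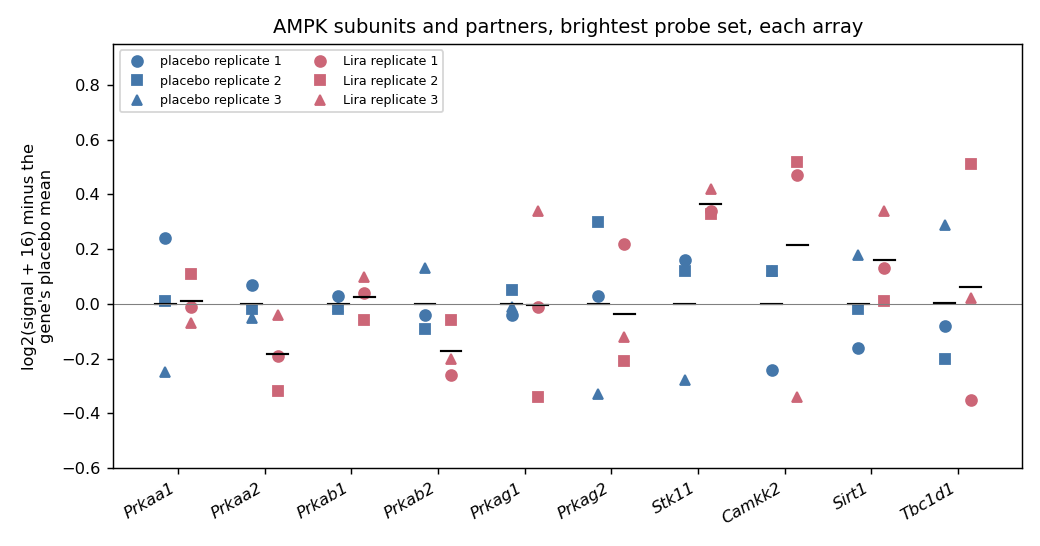
Each point is 1 array, given as log2(signal + 16) of the gene's brightest probe set minus the gene's placebo mean, with placebo in blue, Lira in red and group means as black bars (n = 3 per group). Only for Stk11 do the 3 Lira points, from 0.33 to 0.42, lie above all 3 placebo points, while the Lira points of Prkag1 and Camkk2 spread to both sides of 0.

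Among the catalytic subunits, Prkaa2 encodes the form that predominates in heart and skeletal muscle, and Prkaa1 the form found in most tissues. The brightest of 3 probe sets of Prkaa2 (1434766_at) read 1177, 1106 and 1083 on the placebo arrays and 978, 897 and 1092 on the Lira arrays. A Lira array, replicate 3, lay among the placebo arrays, and the other two lay below all of them. The means were 1120 ± 49.1 and 989 ± 98.0 (SD, n = 3), a log2 difference of -0.18 ± 0.10 (SE) with a 95% interval of -0.40 to 0.03 (limma, adjusted p = 0.85). On this scale, log2(signal + 16), the interval runs from 0.76-fold to 1.02-fold.

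The other probe sets of Prkaa2 also had lower means with Lira. The dimmest of them (1429464_at) read 143, 168 and 217 with placebo and 160, 102 and 98.2 with Lira, where Lira replicate 1 lay inside the placebo range. Fitted among 24461 probe sets, it differed by -0.51 ± 0.20 (unadjusted p = 0.024, adjusted p = 0.85, limma). The remaining one (1429463_at) read 309, 201 and 175 against 250, 191 and 205, and differed by -0.05 ± 0.19. All 3 probe sets of Prkaa2 thus had a negative difference, from -0.51 to -0.05, and none passed after adjustment. Without Lira replicate 3 the brightest probe set differed by -0.26 (unadjusted p = 0.032, adjusted p = 0.79, limma).

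Prkaa1 had 1 probe set (1437539_at) with signals of 58.6, 47.7 and 37.1 with placebo and 46.7, 52.2 and 44.4 with Lira. The Lira arrays lay inside the placebo range. The means were 47.8 ± 10.8 and 47.8 ± 4.01, and the log2 difference of 0.01 ± 0.24 had an interval of -0.51 to 0.53, wide enough to hold a fall to 0.70-fold or a rise to 1.44-fold. The log2 difference between Prkaa2 and Prkaa1 within each array shifted by -0.19 with Lira, from 4.17 ± 0.19 to 3.98 ± 0.23 (exact two-sided permutation test, p = 0.4). The smallest p that 3 against 3 arrays allow in this test is 0.1, so it could not pass 0.05.

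The scaffold subunits hold the complex together and carry a carbohydrate-binding module. Prkab1 was the steadiest of the 10 genes on the placebo arrays, with an SD of 0.02 on the log2 scale. Its brighter probe set (1424119_at) read 368, 356 and 359 with placebo and 372, 345 and 388 with Lira. The Lira arrays lay on both sides of the placebo arrays, and the log2 difference was 0.03 ± 0.11 with an interval of -0.21 to 0.26. Its second probe set (1452457_a_at) measured 78.3 ± 12.8 with placebo and 95.6 ± 21.0 with Lira, with overlapping groups (0.23 ± 0.20).

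Prkab2, the scaffold form prominent in striated muscle, read 521, 502 and 590 with placebo and 445, 512 and 466 with Lira on its brightest probe set (1435874_at). Lira replicates 1 and 3 lay below all placebo arrays and Lira replicate 2 did not. The means were 538 ± 46.4 and 475 ± 34.4, a log2 difference of -0.17 ± 0.11 (adjusted p = 0.87, limma). A second probe set (1435875_at) differed by -0.09 ± 0.13, with its lowest signal, 311, on Lira replicate 3. The third (1442001_at) had the other sign, 0.11 ± 0.29, with 123, 49.2 and 51.1 on the placebo arrays and 102, 74.7 and 55.0 on the Lira arrays, so the groups overlapped. The difference between Prkab2 and Prkab1 within arrays shifted by -0.20, from 0.55 ± 0.12 to 0.35 ± 0.17 (exact two-sided permutation test, p = 0.3).

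The nucleotide-sensing subunits bind AMP, ADP and ATP. Prkag1 read 795, 849 and 809 with placebo on its brighter probe set (1417690_at) and 813, 643 and 1039 with Lira. The Lira group held both the lowest and the highest signal of the 6 arrays, and its SD was 199 against 27.9 with placebo. The means of 817 and 832 gave a log2 difference of 0.00 ± 0.14, with an interval of -0.31 to 0.30. The other probe set (1433533_x_at), whose suffix in the array's naming marks probes that may also match other transcripts, read 291, 247 and 261 with placebo and 293, 293 and 277 with Lira (0.11 ± 0.12). On it, Lira replicates 2 and 3 were close, so the wide Lira spread of the brighter probe set was not seen on both.

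Prkag2 is the subunit gene whose mutations cause an inherited cardiomyopathy with glycogen storage and ventricular pre-excitation. Its brightest probe set (1451140_s_at) read 150, 183 and 113 with placebo and 173, 124 and 133 with Lira, with the Lira arrays inside the placebo range. The next (1423831_at) read 133, 152 and 143 against 161, 111 and 152. Both differed by -0.03, with SE of 0.19 and 0.17 in the fit of all probe sets. The third (1423832_at) ranged from 25.8 to 70.5 and differed by 0.02 ± 0.31. The dimmest (1431263_at) was dim on all 6 arrays, with 12 to 22.4 with placebo and 4.76 to 11 with Lira. Its groups did not overlap, and the filter left it out of the test. The difference between Prkag2 and Prkag1 shifted by -0.03 (exact two-sided permutation test, p = 0.9).

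**Figure D2:**
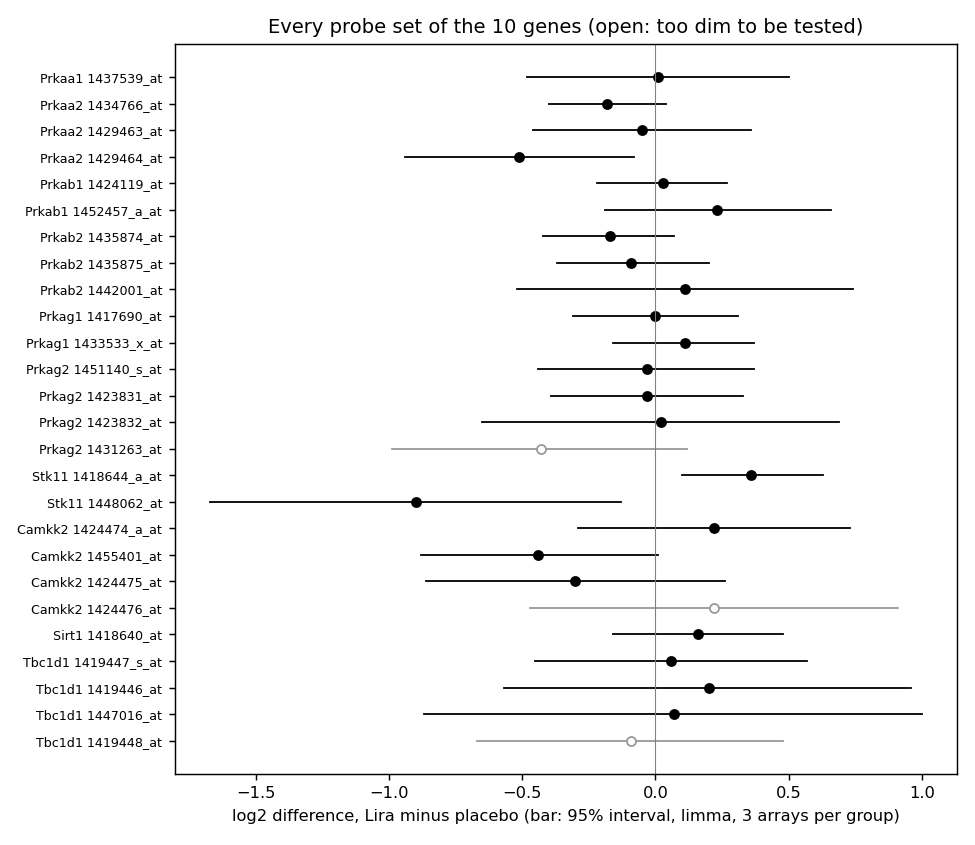
Points are log2 differences, Lira minus placebo, of each of the 26 probe sets, with 95% intervals from limma (3 arrays per group), and open points are the 3 probe sets too dim to be tested. The intervals of 3 probe sets, 1429464_at of Prkaa2 and both of Stk11, lie on one side of 0, and those of Stk11 lie on opposite sides, the negative one from the dim probe set.

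Stk11 encodes LKB1, the kinase that phosphorylates the catalytic AMPK subunits and a family of related kinases. Its brighter probe set (1418644_a_at) read 707, 686 and 518 with placebo and 806, 797 and 850 with Lira. All 3 Lira arrays lay above all 3 placebo arrays, and the Lira arrays were close together while placebo replicate 3 stood low. The means were 637 ± 104 and 818 ± 28.6, a log2 difference of 0.36 ± 0.12 with an interval of 0.10 to 0.63, or 1.29-fold (unadjusted p = 0.0098, adjusted p = 0.64, limma). Stk11 ranked 196 among the 12735 genes by p. With no variance trend in the fit, its unadjusted p was 0.041 (adjusted p = 0.9, limma). Without placebo replicate 3 the difference was 0.23 (unadjusted p = 0.044, adjusted p of 1), the smallest value with an array left out.

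The second probe set of Stk11 (1448062_at) was dim, with signals below the array's median over the probe sets with 1 gene on 5 of 6 arrays. It read 69.1, 43.0 and 28.1 with placebo and 5.99, 18.2 and 29.4 with Lira. Against the median over all probe sets, placebo replicates 1 and 2 and Lira replicate 3 lay above (medians 31.9, 36.4 and 28.6). Only Lira replicate 3 reached the placebo range. The means were 46.8 ± 20.8 and 17.9 ± 11.7, a log2 difference of -0.90 ± 0.35 (unadjusted p = 0.025, adjusted p = 0.85, limma, all probe sets). With the mean of both probe sets in place of the brighter, the difference of Stk11 was -0.27 (unadjusted p = 0.19). Both negative values include this dim signal.

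The promoter of Stk11 is shown because it is the one gene of the 10 whose groups were apart. The stretch is chr10:80115545-80115766 of GRCm38.p6, plus strand, from RefSeq, and ends 1 base before the outermost annotated start of the gene. Capitals mark the CCAAT motif, a box common in promoters and bound by the factor NF-Y.
Stk11: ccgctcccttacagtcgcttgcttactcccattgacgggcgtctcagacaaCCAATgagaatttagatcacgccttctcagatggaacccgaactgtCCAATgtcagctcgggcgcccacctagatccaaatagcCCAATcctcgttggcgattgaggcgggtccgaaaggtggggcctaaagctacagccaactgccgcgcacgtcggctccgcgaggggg
It held 3 matches, all on the gene's strand, whose first bases lie 199, 153 and 115 bases before the annotated start at position 80115795. On either strand, CCAAT was found in 33.8% of all 32851 promoter windows of 250 bases. Of the 10 genes, 3 held it in at least 1 window, Stk11, Prkag1 and Prkag2, the last with several starts.

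Camkk2 encodes the kinase that phosphorylates AMPK when cytosolic calcium rises. Its brightest probe set (1424474_a_at) read 66.2, 89.4 and 89.6 with placebo and 119, 123 and 60.5 with Lira. Lira replicates 1 and 2 lay above the placebo arrays and Lira replicate 3 below them, which gave 0.22 ± 0.23 with an interval of -0.29 to 0.72. The difference was 0.50 without Lira replicate 3 (unadjusted p = 0.025, adjusted p = 0.78, limma), and 0.06 without Lira replicate 2, 0.09 without Lira replicate 1 and 0.10 without placebo replicate 1.

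A second probe set of Camkk2 (1455401_at) read 61.3, 58.3 and 67.1 with placebo and 41.3, 43.0 and 41.0 with Lira. Its groups did not overlap, the arrays within each group were close together, and the log2 difference was -0.44 ± 0.21 (unadjusted p = 0.055, adjusted p = 0.88, limma, all probe sets). Another (1424475_at) differed by -0.30 ± 0.26 and the dimmest (1424476_at) by 0.22 ± 0.31 before the filter. Signals were low on all 3 of these probe sets. They lay below the median over the probe sets with 1 gene on 2 arrays for 1455401_at, on 3 for 1424475_at and on all 6 for 1424476_at. The mean of all probe sets differed by -0.08, so the sign for Camkk2 was not the same on all probe sets, and none passed after adjustment.

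**Figure D3:**
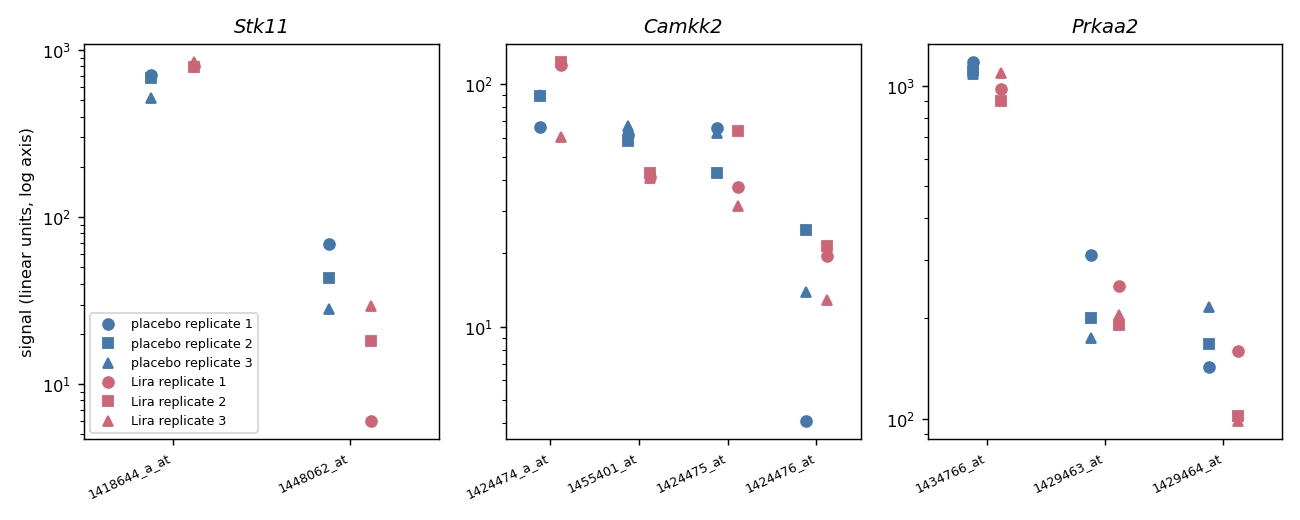
Signals of each probe set of Stk11, Camkk2 and Prkaa2 on a log axis, 1 point per array, with placebo in blue and Lira in red (n = 3 per group). The Lira points of Stk11 lie above placebo on 1418644_a_at and mostly below on 1448062_at, and those of Camkk2 lie below placebo on 1455401_at, at 41.0 to 43.0 against 58.3 to 67.1.

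Over the 23 probe sets of the 10 genes that could be tested, the log2 difference was positive in 12 and negative in 11. At an unadjusted p under 0.05 there were 3 of 23, both of Stk11 and 1 of Prkaa2, against 5.60% of all 24461 probe sets tested. Groups did not overlap in 2 of 23, the brighter of Stk11 and 1455401_at of Camkk2, against 11.2% of all.

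Sirt1, a deacetylase that needs NAD and is known to act on LKB1, had 1 probe set (1418640_at). It read 164, 182 and 211 with placebo and 204, 187 and 238 with Lira. The groups overlapped, with the highest signal on a Lira array and the lowest on a placebo array. The means were 186 ± 24.0 and 209 ± 26.0, a log2 difference of 0.16 ± 0.14 with an interval of -0.15 to 0.47, or 0.90-fold to 1.38-fold (adjusted p = 0.92, limma).

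The Sirt1 promoter is shown because it was the one promoter of the 10 genes with the motif CACGTG, an E-box that MYC, USF and clock factors bind. The stretch is chr10:63339036-63339285 of GRCm38.p6, minus strand, from RefSeq, the 250 bases before the annotated start, with the motif in capitals.
Sirt1: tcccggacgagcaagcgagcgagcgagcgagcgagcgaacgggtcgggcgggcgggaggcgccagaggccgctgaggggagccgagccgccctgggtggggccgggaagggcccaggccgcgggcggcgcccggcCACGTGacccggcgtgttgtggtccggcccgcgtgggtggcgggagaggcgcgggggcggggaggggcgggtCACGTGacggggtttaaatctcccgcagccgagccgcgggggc
It held 2 matches, which begin 115 and 43 bases before the start, and CACGTG, which reads the same on both strands, occurred in 6.0% of all promoter windows. Neither the cAMP response element TGACGTCA nor the FOXO core GTAAACA was found in a window of the 10 genes on either strand. They occurred in 1.5% and 3.2% of all windows.

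Tbc1d1 restrains the movement of GLUT4 glucose transporters to the cell surface until AMPK or AKT phosphorylates it. Its brightest probe set (1419447_s_at) read 70.8, 63.8 and 96.0 with placebo and 56.0, 115 and 77.4 with Lira. The Lira group held both the lowest and the highest array, and the difference was 0.06 ± 0.23 with an interval of -0.44 to 0.57. The other probe sets (1419446_at, 1447016_at and 1419448_at) lay below the median over the probe sets with 1 gene on all 6 arrays. Their signals were at most 37.5, and they differed by 0.20, 0.07 and -0.09. On Lira replicate 1, 1419446_at (37.5) and 1447016_at (35.8) lay just above the median over all probe sets, 35.3.

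The 10 genes did not vary as a block across the mice. Over the 6 arrays, Prkab1 and Prkag1 had a Pearson correlation of 0.87, the highest of 45 pairs, while Prkab2 and Stk11 had -0.88 and Prkaa2 and Camkk2 -0.85. After removing the group means, Prkaa2 correlated at 0.95 with Prkab1 and at 0.87 with Prkag1, but at -0.93 with Camkk2 and at -0.52 with Prkab2. Prkab2 correlated at 0.94 with Tbc1d1 and at -0.93 with Prkag2, so large values of both signs occurred. These values describe 6 arrays that share their scaling, and carry no test. The genes most like Prkaa2 over the 6 arrays were Gcnt1 (r = 0.992), Homer2 (0.988) and Cebpb (0.983), a transcription factor, among 35 of 12734 genes with r over 0.95. Gcnt1 read only 14.6 to 34.2, below the array's median over all probe sets on every array except placebo replicate 1. The genes most like Sirt1 were Abra (0.989), an actin-binding muscle protein, Zfp787 (0.984) and Mettl7a1 (0.983), among 16 genes.

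Genes around the 10 were read from 5 lists, none of which had a member past an adjusted p of 0.05 in limma over all genes tested. At an unadjusted p under 0.05 there was 1 gene in each of 4 lists and 0 in the last, again to be read against 6.02%. They also moved with processing. With the mean of probe sets, where 5.37% of all genes tested were called, AMPK substrates had 4 and the kinases activated by LKB1 had 0. With array weights (7.04%), AMPK substrates had 3 and sirtuins and NAD enzymes had 4. These counts moved with single arrays as well, where 4.92% to 6.78% of all genes tested were called. The count of AMPK substrates was 4 without placebo replicate 1, 3 without placebo replicate 2 or Lira replicate 2, 2 without placebo replicate 3 or Lira replicate 3, and 0 without Lira replicate 1. That of sirtuins and NAD enzymes was 4 without placebo replicate 1, and 2 without placebo replicate 3, Lira replicate 1 or Lira replicate 2. That of GLUT4 traffic was 3 without Lira replicate 2, 2 without placebo replicate 1, and 1 without placebo replicate 2 or Lira replicate 3. Without placebo replicate 1, that of regulators was 0 and that of the kinases activated by LKB1 was 2. Groups did not overlap in 2 of 18 regulators, 3 of 30 AMPK substrates and 0 of 10 kinases activated by LKB1. They were apart in 3 of 21 sirtuins and NAD enzymes and in 1 of 22 genes of GLUT4 traffic. The share over all genes tested was 11.4%. Over all genes tested, the log2 difference was positive in 6613 and negative in 6122. Among regulators of AMPK, which are the partners of LKB1, the upstream kinase gene Map3k7, phosphatases, folliculin and its partners, adiponectin receptors with their adaptor Appl1, the adenylate kinase gene Ak1 and Prkag3, 18 genes were tested. The log2 difference was positive in 8 and negative in 10, and its median was 0.00. The phosphatase subunit Ppp2r3a reached an unadjusted p under 0.05, at 1660 ± 81.1 with placebo and 1390 ± 119 with Lira (-0.25 ± 0.09, unadjusted p = 0.018, adjusted p = 0.71). Its groups did not overlap, and all 3 of its probe sets had that sign. The pseudokinase Strada, which binds and activates LKB1, measured 80.1 ± 6.53 and 109 ± 35.9 with a signal of 150 on Lira replicate 3. Cab39l, of the scaffold family that completes the LKB1 complex, measured 188 ± 33.8 and 213 ± 11.6. Fnip1, a partner of folliculin, measured 554 ± 8.95 and 610 ± 74.6, and 1 of its 3 probe sets had that direction.

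Of 30 tested AMPK substrates and targets, the log2 difference was positive in 13 and negative in 17 (median -0.01). Lipe, hormone-sensitive lipase, read 116, 157 and 126 with placebo and 250, 166 and 185 with Lira. All its Lira arrays lay above the placebo arrays, with 0.53 ± 0.17 (unadjusted p = 0.0079, adjusted p = 0.64, limma), and both of its probe sets had that sign. Foxo3, a transcription factor of the stress response, measured 588 ± 58.1 and 486 ± 81.2 (-0.28 ± 0.13). Eef2k, which brakes translation elongation, measured 336 ± 55.2 and 276 ± 6.17 with groups apart (-0.26 ± 0.13, unadjusted p = 0.07). Gpam, an enzyme of triglyceride synthesis, measured 5080 ± 548 and 4400 ± 425.

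Of 10 tested kinases that LKB1 also activates, the log2 difference was positive in 5 and negative in 5 (median 0.04). The salt-inducible kinase Sik1 measured 148 ± 41.1 and 95.1 ± 14.9 (-0.54 ± 0.19, unadjusted p = 0.014, adjusted p = 0.69, limma), while 1 of its 2 probe sets pointed upward. Its relative Sik2 measured 216 ± 45.9 and 268 ± 12.5 (0.31 ± 0.15), with that sign on all 3 probe sets. Mark4 measured 114 ± 40.4 and 78.9 ± 11.2, and Snrk 1560 ± 98.3 and 1430 ± 246, both with overlapping groups.

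Of 21 tested sirtuins, NAD enzymes and Sirt1 partners, the log2 difference was positive in 12 and negative in 9 (median 0.07). Ccar2, whose product binds and inhibits SIRT1, read 108, 112 and 86.6 with placebo and 142, 175 and 139 with Lira. The groups of Ccar2 were apart, with 0.51 ± 0.16 (unadjusted p = 0.007, adjusted p = 0.62, limma). It is 1 of 3 genes of this list with groups apart, not all in that direction. Rps19bp1, a SIRT1 activator, measured 107 ± 20.6 and 137 ± 15.3 with overlapping groups. The mitochondrial enzymes Sirt5 and Nadk2 measured 750 ± 39.6 and 657 ± 58.6, and 866 ± 189 and 1020 ± 69.3, with overlapping groups in both.

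Of 22 tested genes of Rab GTPase control and GLUT4 traffic, the log2 difference was positive in 15 and negative in 7 (median 0.07). Of them, 0 reached an unadjusted p under 0.05. Tbc1d4, the close relative of Tbc1d1, read 524, 499 and 292 with placebo and 530, 517 and 649 with Lira (0.39 ± 0.18, adjusted p = 0.82, limma). Its groups overlapped, and placebo replicate 3 stood low. Akt2 measured 595 ± 60.6 and 679 ± 25.4 with groups apart, Rab2a 2200 ± 605 and 2640 ± 371 with that direction on 3 of 7 probe sets, and Stx4a 636 ± 53.6 and 736 ± 102.

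**Figure D4:**
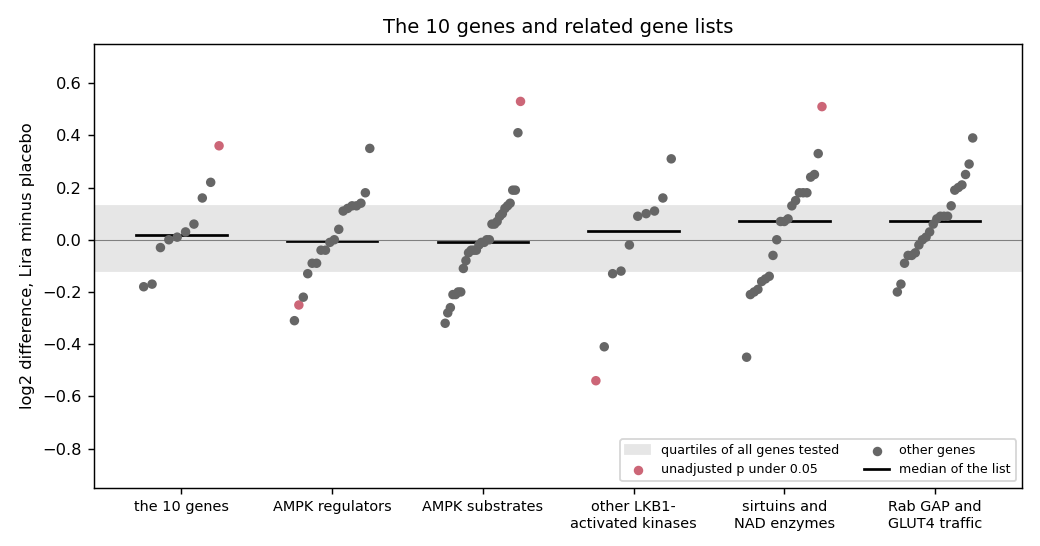
Each point is a gene's log2 difference, Lira minus placebo (n = 3 per group), for the 10 genes and the 5 related lists, with red for an unadjusted p under 0.05, black bars for list medians and a grey band from the lower quartile, -0.12, to the upper quartile, 0.13, of all genes tested. All list medians, from -0.01 to 0.07, lie inside the band.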

How the data were processed

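Total RNA from 6 left ventricles was read on Affymetrix mouse arrays, and the authors deposited linear signal intensities. Per the submitters' processing notes, these come from Affymetrix Expression Console, with algorithm and version not given in the sources used here. A trimmed mean of 150 on each array was checked on the values, and it hides differences in total signal. The array holds 45101 probe sets, 64 of them controls that were removed. Of the others, 34945 had 1 gene, 932 had several and were not named, and 9160 were not in the name table. By gene ID, 34741 matched RefSeq symbols (GRCm38.p6). Each gene was represented by its brightest probe set over all arrays, as log2(signal + 16), which understates changes of dim genes. A filter on the mean removed the dimmest 30% of genes, and 12735 with a mean signal of at least 23.7 were tested. All probe sets were also fitted, 24461 after the same filter.

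Groups were taken from the agent in the labels. The contrast of Lira and placebo was fitted with limma 3.58.1 in R 4.3.3, using lmFit and eBayes (trend on, two-sided) and Benjamini-Hochberg adjustment. The design text gives 1 heart per mouse. Limma draws each gene's spread between these mice toward a trend fitted over all genes. The SE, intervals and p-values from limma therefore do not measure a gene's own spread alone. The fit was tested on simulated data. The 10 genes and the lists were chosen with earlier results of these data known. The named genes are the 10, up to 4 genes of each list with the smallest p, and the 3 most like Prkaa2 and Sirt1. The promoters were chosen after the values were seen. The labels do not say that replicate numbers pair the mice, so the main fit was unpaired. Alternatives were other normalizations, pseudocounts, filters, probe set rules, priors, weights, a replicate block and each array left out.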

Additional observations from a re-analysis of the deposited data

How the results depend on the processing

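None of the 10 genes passed an adjusted p of 0.05 under any of the 18 alternatives run, and the smallest adjusted p of any of them was 0.5, for Stk11 with the 50% filter. The count at an unadjusted p under 0.05 was 0 with the mean of probe sets, against 5.37% of all genes tested. It was 2 with every probe set (Prkaa2 and Stk11), against 5.60% of all probe sets tested. With an array left out it was 1 to 3, against 4.92% to 6.78% of all genes tested. The 3 were Camkk2, Prkaa2 and Stk11 without Lira replicate 3, against 6.12%. The count whose groups do not overlap was 2 with quantile normalization, 0 with median centring and 0 with the mean of probe sets. It was 2 with every probe set, against 11.2% of all probe sets tested, and 1 to 3 with an array left out, where fewer arrays overlap less. For the other settings the share of all genes without overlap was not computed, so these counts are not read as a result about the 10 genes. Prkaa2, Prkab2 and Sirt1 kept their sign in all 17 settings that fit 1 value a gene, with ranges of -0.26 to -0.12, -0.23 to -0.05 and 0.07 to 0.25.

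Sign changes came with the mean of probe sets for Stk11 (-0.27), Camkk2 (-0.08) and Prkag1 (0.05), and for Prkag1 also with median centring (0.01) and a pseudocount of 64 (0.00). The main difference of Prkag1 lay just below 0 and rounds to 0.00, so its changes of sign to 0.00 or 0.01 carry no weight. They came with array weights for Prkaa1 (-0.02), without placebo replicate 2 for Prkag1 (0.03), Prkag2 (0.11) and Tbc1d1 (-0.04), and without placebo replicate 3 for Prkaa1 (-0.11). Without Lira replicate 1 Prkag1 gave 0.00, without Lira replicate 2 Prkaa1 gave -0.04, Prkag1 0.17, Prkag2 0.05 and Tbc1d1 -0.16, and without Lira replicate 3 Prkab1 gave -0.01 and Prkag2 0.01. With an array left out, the values lay between -0.11 and 0.13 for Prkaa1, -0.17 and 0.17 for Prkag1, -0.20 and 0.11 for Prkag2, -0.01 and 0.07 for Prkab1, and -0.16 and 0.27 for Tbc1d1. The mean of probe sets changes signs by including the probe sets that differ, for Stk11 a dim one, and the cause of the other changes was not tested.

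Deviations of same-numbered mice from their group means correlated at -0.03, 0.08 and -0.09. With no reference value for these 3 correlations, they cannot settle whether equal numbers mark a pairing. With the replicate number as a block, the counts among the 10 genes were the same. They were 0 past the adjusted threshold, 1 at an unadjusted p under 0.05, against 5.97% of all genes tested, and 1 without overlap. Stk11 differed by 0.36 (adjusted p = 0.67, limma). The isoform contrasts, whose alternatives were added after the data were seen, moved by less than 1 SD of single arrays in all of them. That of Prkag2 and Prkag1 nevertheless changed sign. It was -0.03 with all arrays, 0.18 when Lira replicate 3 was left out, 0.09 when placebo replicate 2 was, and -0.19 when placebo replicate 3 was. With 3 arrays a group the precision is limited throughout, and 3 of the 4 Tbc1d1 probe sets were dim.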

Other observations

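Probe sets of one gene often differed in sign on these arrays. Of 6201 genes with at least 2 tested probe sets, 3689 (59.5%) had probe sets of both signs, and so had 5 of 8 of the genes described here. The 5 include Prkag1, whose negative difference rounds to 0.00.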
